A study of Homo sapiens with 26 samples.

Results

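The 10 genes described here are stress-response genes of the heat shock and integrated stress response (ISR) programmes, HSPA1A, HSPA1B, ATF4, DDIT3, NUPR1, TRIB3, CHAC1, ASNS, GDF15 and INHBE, out of 60663 genes in the RNA-seq tables. They were chosen on their levels in the 7 RNA-seq total inputs, so those levels are given as a description with no test. The samples were HEK293T cells, a transformed human embryonic kidney line, in which ribosomes carrying an Avi-tagged RPL29 were biotinylated by a light-gated BirA ligase (LOV-BirA) placed at the outer mitochondrial membrane (OMM), at the endoplasmic reticulum (ER) or in the cytosol. Biotinylated ribosomes were pulled down, and the pulldown and its total input came from the same lysate. RNA-seq of the OMM labelling covered wild type, LARP4 null and AKAP1 null cells, each with 2 replicates, and 1 further pair of libraries without cycloheximide, an inhibitor of translation elongation that was added to living cells before labelling in the standard protocol. Wild type cells carried a negative control guide RNA, each null line was 1 clone, the RPL29-Avi line was itself 1 clone, and the labels give no genotype for the pair without cycloheximide. That pair was also labelled for a shorter time and came from 1 lysate. Cycloheximide, labelling time, cell line and culture thus cannot be told apart in it. Ribosome profiling, which sequences the fragments of mRNA that ribosomes cover, was done on 2 total inputs and 2 pulldowns for each of ER, mito (OMM) and cytosol labelling. The labels speak of cycloheximide only for the pair without it and do not state the treatment of any other library. The study calls the OMM ribosome profiling replicates biological, and for the other samples nothing in the sources used here states that replicates came from separate cultures, so their p-values measure only the spread between these samples.

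Cells meet protein-folding stress with heat shock factor HSF1, which drives transcription of the HSP70 chaperone genes HSPA1A and HSPA1B through heat shock elements in their promoters. In the ISR, kinases that sense amino acid shortage, ER stress, haem shortage or double-stranded RNA phosphorylate the initiation factor eIF2α, which lowers general initiation but raises translation of ATF4, whose mRNA has upstream open reading frames. ATF4 and its partner DDIT3 (CHOP) then activate genes through C/EBP-ATF elements, among them amino acid enzymes such as ASNS, the glutathione-degrading enzyme CHAC1, the feedback pseudokinase TRIB3, the chromatin-associated cofactor NUPR1 and the secreted factors GDF15 and INHBE.

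The promoters of 8 of the 10 genes were given by RefSeq (GRCh38.p14, 250 bases before to 50 after each start site), and INHBE and NUPR1 had no entry. The heat shock element searched, GAANNTTC, was in 6.77% of 35116 promoters, and the C/EBP-ATF element searched, TGATGNAA, was in 3.62%, both strands counted. A heat shock element lay 106 bases before the start site of HSPA1A and 105 bases before that of HSPA1B. An ASNS promoter window held a C/EBP-ATF element that overlapped a match to the heat shock element, while a further ASNS window held neither. The CHAC1 promoter held a C/EBP-ATF element on the opposite strand. No match to either was found in the windows of ATF4, DDIT3, TRIB3 and GDF15. The stretches around the matches are shown 5′ to 3′ on the gene's strand because the 10 genes fall into an HSF1 and an ATF4 group, with the matches in capitals.
HSPA1A chr6:31815391-31815490 (+ strand): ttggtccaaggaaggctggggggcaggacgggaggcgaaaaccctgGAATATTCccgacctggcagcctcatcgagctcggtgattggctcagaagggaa
HSPA1B chr6:31827587-31827686 (+ strand): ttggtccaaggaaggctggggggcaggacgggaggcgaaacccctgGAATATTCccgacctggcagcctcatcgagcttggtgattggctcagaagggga
ASNS chr7:97872419-97872522 (- strand): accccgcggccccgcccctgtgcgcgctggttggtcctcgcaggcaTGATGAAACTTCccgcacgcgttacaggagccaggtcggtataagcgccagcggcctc
CHAC1 chr15:40953221-40953315 (+ strand): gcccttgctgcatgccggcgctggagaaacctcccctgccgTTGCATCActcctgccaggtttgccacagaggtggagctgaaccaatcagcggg
The stretches of HSPA1A and HSPA1B were nearly identical, as were their coding sequences (GENCODE 44), in which 4 of 1923 bases differed.

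Reads from such copies cannot be assigned with certainty, and the RNA-seq tables gave nearly all counts to HSPA1B, so the pair is also given as a sum. ASNS (chr7:97851677-97872542) is overlapped by another annotated gene, so its RNA-seq counts cover only reads that were not shared. The ribosome profiling tables hold 8 of the 10 genes in entries of their own, while ASNS shares its entry with 1 gene and NUPR1 with 3. RNA-seq libraries held 38347615 to 100840544 counts and the ribosome profiling libraries 1025114 to 19539527 footprints in coding sequences. The HEK293T markers PAX2, LHX1 and NEFM were present in all 7 total inputs (lowest 1.00 CPM, counts per 1000000 counted reads of the library), and 9 markers of blood, liver, stromal and endothelial cells summed to 0.56 CPM without cycloheximide and to 0.209 to 0.883 CPM in the other 6 total inputs, with CD3E at 0 in all. AKAP1 was at 32.2 and 20.3 CPM in AKAP1 null total inputs against 115 and 119 CPM in wild type, and LARP4 was at 79.3 and 74.0 CPM in LARP4 null against 225 and 231 CPM.

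A pair of total inputs stood apart from the rest, 1 in each assay. Across 12821 genes, log2 CPM of the RNA-seq total input without cycloheximide correlated with the other 6 at r = 0.953 to 0.963, against 0.981 to 0.991 among those 6. In ribosome profiling, cytosol replicate 2 correlated with the other 5 total inputs at r = 0.896 to 0.906 over 6436 genes, against 0.963 to 0.997 among those 5, and its pulldown departed likewise for the genes below.

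The HSP70 genes were far lower in the library without cycloheximide. HSPA1B (chr6:31827738-31830254) was at 273 and 293 CPM in the wild type total inputs, 334 and 279.6 CPM in LARP4 null, 329.6 and 445.5 CPM in AKAP1 null and 22.5 CPM without cycloheximide. All 6 other libraries were thus above the one without cycloheximide, which was 12.5-fold below the wild type mean (95% exact binomial counting interval 12.03 to 13.2). This was the lowest ratio to wild type among the 14387 genes with a mean of at least 64 counts in the 3 libraries. Nothing is read from that rank, since these libraries chose the genes. HSPA1A (chr6:31815543-31817946) followed HSPA1B at a lower level. It was at 0.808 and 0.871 CPM in wild type, 0.952 to 1.48 CPM in the nulls and 0.0646 CPM, from 6 counts, without cycloheximide. Its mean count was 25.7, under the minimum. With both genes summed the ratio was again 12.5-fold. In these bulk libraries, fewer transcripts of a gene per cell and fewer cells that carry it cannot be told apart.

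The transcription factors of the ISR divided into ATF4, whose RNA was at a like level in all libraries, and DDIT3 and NUPR1, whose RNA was several-fold higher without cycloheximide. ATF4 (chr22:39519695-39522683), the factor whose synthesis is controlled mainly at translation, was the most abundant of the 10 genes per length at 224 ± 21.7 FPKM (SD, n = 6) in the other total inputs and 277 FPKM without cycloheximide. Its RNA was at 629 and 596 CPM in wild type, 574 and 475.5 CPM in LARP4 null, 617 and 616 CPM in AKAP1 null and 724 CPM without cycloheximide, 1.18-fold the wild type mean. DDIT3 (chr12:57516588-57521737), a C/EBP-family factor induced by ATF4, lay between 4.50 and 6.197 CPM in the 6 libraries and at 36.3 CPM without cycloheximide, 6.63-fold wild type (interval 6.05 to 7.37). NUPR1 (chr16:28532708-28539008) had 3 to 16 counts per library in the 6, 0.0782 to 0.223 CPM, and 452 counts or 4.87 CPM without cycloheximide. Its ratio to wild type was 42.2 with a wide counting interval of 22.1 to 86.1, and it was the highest ratio of the 14387 genes. NUPR1 met the minimum count only through that library, and these libraries chose the genes, so nothing is read from the rank.

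The downstream effectors were all higher in the library without cycloheximide than in each of the other 6. The share of all genes that lay outside those 6 is not given here. Nothing is thus read from such a lack of overlap, here or for the other genes. TRIB3 (chr20:362835-397559), which binds DDIT3 and AKT and dampens the response, was at 19.1 CPM in both wild type libraries, 16.3 to 22.8 CPM in the nulls and 79.5 CPM without cycloheximide, 4.16-fold wild type (3.94 to 4.39). CHAC1 (chr15:40952962-40956512) was at 2.69 to 3.42 CPM in the 6 libraries and at 25.3 CPM, 7.99-fold wild type (7.08 to 9.17). ASNS, asparagine synthetase, was at 3.34 and 2.15 CPM in wild type, 1.25 to 2.38 CPM in the nulls and 7.11 CPM without cycloheximide, 2.59-fold wild type (2.27 to 3.08).

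The secreted factors were close to absent outside that library. GDF15 (chr19:18374731-18389176), a TGFβ-superfamily hormone of stressed cells, had 2 to 40 counts in each of the 6 libraries, 0.0479 to 0.397 CPM, and 531 counts or 5.72 CPM without cycloheximide, 24.1-fold wild type (15.4 to 39.8). INHBE (chr12:57452323-57459280), the inhibin βE subunit, had 7 to 47 counts in the 6 libraries, 0.183 to 0.653 CPM, and 1044 counts or 11.2 CPM without cycloheximide, 26.9-fold wild type (18.4 to 36.6). As a log2 ratio this was 4.75, and it was 4.11 against wild type replicate 2 alone and 5.94 against replicate 1 alone. GDF15, INHBE and NUPR1 passed the minimum of 64 counts only through that library. By a fold rule, in which a gene is called when its CPM lies outside both wild type libraries and its log2 ratio to their mean is at least 1 in size, 7 of the 8 ISR genes were called higher, ATF4 was not, and HSPA1B was called lower. Over all genes 4.73% were called higher and 3.44% lower, and since these libraries chose the genes nothing is read from the counts of members.

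**Figure D1:**
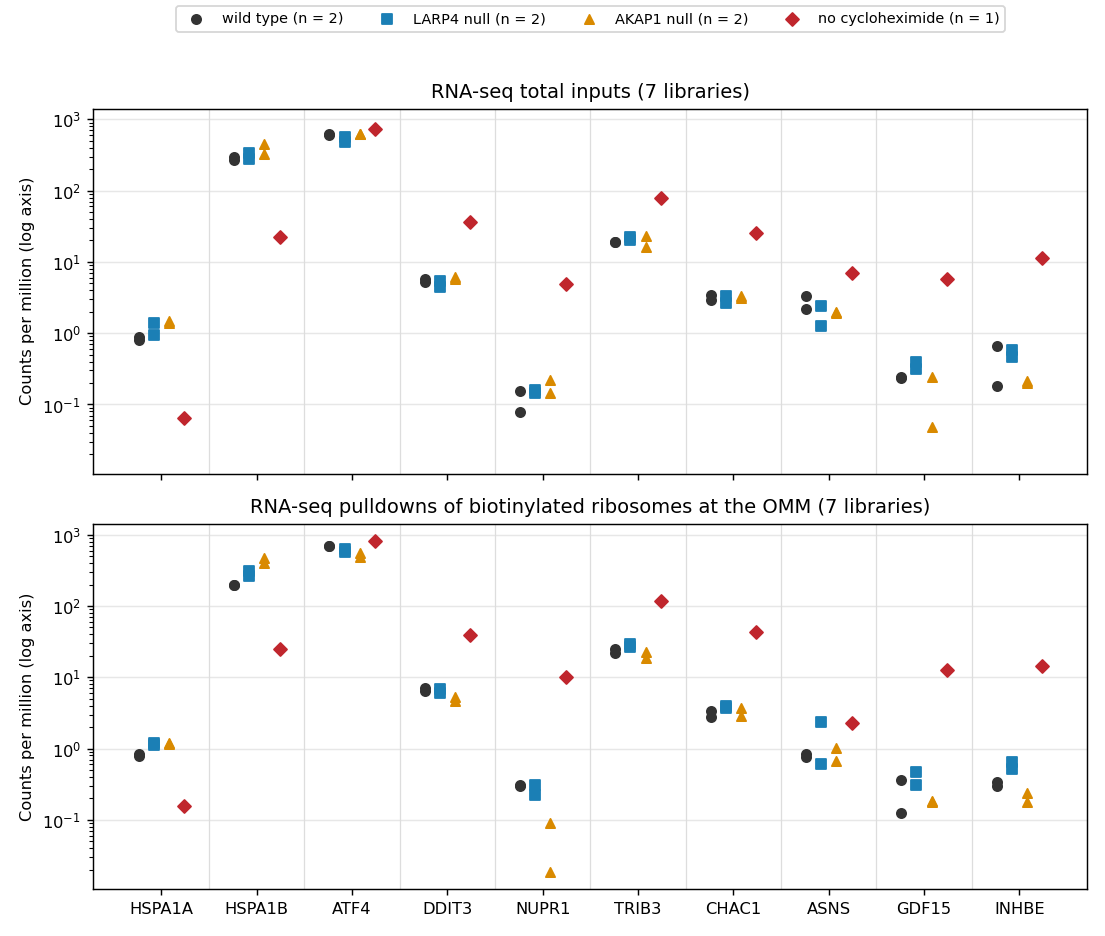
Counts per 1000000 (CPM) on a log axis for the 10 genes in 7 RNA-seq total inputs (top) and 7 OMM pulldowns (bottom), 1 point per library and 1 colour per group. In the total inputs the library without cycloheximide lies below the other 6 for HSPA1A and HSPA1B and above them for the ISR genes, from ATF4 at 724 CPM to NUPR1 at 4.87 CPM.

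The pulldown libraries of the same lysates had the same order of levels for most of the genes. HSPA1B was at 196 to 465 CPM in the 6 pulldowns with a labelled genotype and at 25.3 CPM without cycloheximide. Without cycloheximide the pulldown held GDF15 at 12.8 CPM, INHBE at 14.2 CPM, NUPR1 at 9.93 CPM, DDIT3 at 39.0 CPM, TRIB3 at 116 CPM and CHAC1 at 42.7 CPM. For each of these 6 genes the highest of the other pulldowns was lower, the closest being TRIB3 at 29.5 CPM. ASNS was the exception at 2.26 CPM, inside the range of 0.603 to 2.35 CPM of the others.

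In the total inputs of the null cells HSPA1B stood highest in AKAP1 null. There it averaged 388 ± 82.0 CPM (SD, n = 2), 1.37-fold the wild type mean of 283 ± 14.4 CPM, and the groups did not overlap. In LARP4 null it averaged 307 ± 38.5 CPM and overlapped wild type. ATF4 in LARP4 null lay in both libraries below both wild type libraries, at 0.857-fold their mean, and in AKAP1 null it lay between the wild type values. ASNS averaged 1.96 ± 0.0336 CPM in AKAP1 null, 0.714-fold the wild type mean of 2.75 ± 0.836 CPM, with no overlap, and 1.82 ± 0.798 CPM in LARP4 null, 0.661-fold with overlap. TRIB3, CHAC1 and DDIT3 averaged 0.905- to 1.12-fold wild type in the nulls, and of these only TRIB3 in LARP4 null did not overlap wild type. HSPA1A, at far lower counts, averaged 1.71-fold wild type in AKAP1 null and 1.40-fold in LARP4 null, with no overlap in either. GDF15, INHBE and NUPR1 averaged 0.5002- to 1.59-fold, and of these only GDF15 in LARP4 null, at 1.497-fold, did not overlap. These libraries chose the genes, so the values are a description. The share of all genes without overlap at this replication is not given here, so nothing is read from a lack of overlap. With edgeR's quasi-likelihood test and Benjamini-Hochberg adjustment, 0 of 13977 genes (0.0%) were called between AKAP1 null and wild type total inputs and 2 of 13977 (0.0143%) between LARP4 null and wild type. At an unadjusted p under 0.05 there were 489 and 509 genes, and DESeq2 called 8 higher and 7 lower in AKAP1 null and 14 higher and 14 lower in LARP4 null. AKAP1 itself was not called in its null, at a log2 difference of -2.15 (SE 0.22) and adjusted p = 0.242 by edgeR, so the adjusted test at this replication missed a difference of that size.

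Further genes of both programmes were called in the library without cycloheximide. A list of 44 further ATF4 targets, which holds none of the 10, had 42 members over the minimum, of which 20 were called higher and 1 lower by the fold rule, with a median log2 ratio of 0.97 against 0.02 over all genes. Its largest ratios were those of DDIT4, an inhibitor of mTORC1, at 33.0 and 26.9 CPM in wild type and 194 CPM without cycloheximide, and of ATF3, a bZIP factor, at 30.6, 30.0 and 168 CPM. The gene called lower was ATF5, a bZIP factor that is likewise under uORF control, at 31.6 and 23.4 CPM in wild type and 9.44 CPM without cycloheximide. A list of 24 heat shock genes had 22 over the minimum, with 5 called lower, 1 higher and a median log2 ratio of -0.42. HSPA8, the constitutive HSC70, was at 1969 and 2136 CPM in wild type and 496 CPM without cycloheximide, and its J-domain partner DNAJB1 was at 154, 169 and 44.9 CPM. The small heat shock protein HSPB8 was the one called higher, at 0.808 and 0.370 CPM in wild type and 4.49 CPM.

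The other lists are given beside the shares over all genes, 4.73% called higher and 3.44% lower, with no test between lists. None of 15 eIF2α kinases, eIF2 subunits and other core ISR components was called, and their median log2 ratio was 0.12. Of 17 genes of the ATF6 and XBP1 arms of the unfolded protein response, XBP1 was called higher, at 178 and 152 CPM in wild type and 331 CPM without cycloheximide, and HYOU1 and SDF2L1 were called lower at log2 ratios of -1.07 and -1.01, with a list median of -0.34. Of 23 immediate early genes KLF10 and BTG2 were called higher, at log2 ratios of 1.89 and 1.19, and SGK1 lower at -1.16, with a list median of -0.14. Of 14 p53 targets 5 were called higher, led by the cell cycle inhibitor CDKN1A (log2 1.52) and BBC3 (log2 1.42), and the list median was 0.96. Of 13 snoRNA host genes, whose RNAs are decayed by the translation-dependent nonsense pathway, SNHG1 and GAS5 were called higher at 1.47 and 1.16, with a list median of 0.55. In the AKAP1 null and LARP4 null comparisons none of the members of these 7 lists was called, where 0 and 2 of 13977 genes were called in all. That test also missed AKAP1 itself. The heat shock list had a median log2 difference of 0.21 in AKAP1 null and 0.09 in LARP4 null. The other lists had medians of -0.06 to 0.15 and -0.09 to 0.16, against -0.003 and -0.004 over all genes.

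In the ribosome profiling total inputs cytosol replicate 2 stood out in these genes. HSPA1B had 69.9 and 56.0 RPM (footprints per 1000000 coding footprints of the library) in the coding sequence in the ER total inputs, 53.03 and 63.8 RPM in the mito total inputs, 90.5 RPM in cytosol replicate 1 and 8.84 RPM in cytosol replicate 2, 7.54-fold below the mean of the other 5. Only 20 coding positions of HSPA1B could be counted, because positions shared with its copy were masked by the authors. Over all 559 countable exon positions HSPA1B had 475 to 783 RPM of all exon footprints in the 5 libraries and 85.1 RPM in cytosol replicate 2. Those exon footprints lay mostly at 181 positions labelled 5′ leader, with 11307 of 12207 in ER replicate 1 and 576 of 616 in cytosol replicate 2. The exon values thus say little about the coding sequence. TRIB3 was at 19.7 to 24.2 RPM in the 5 total inputs and 124 RPM in cytosol replicate 2, 5.63-fold higher (counting interval 4.99 to 6.15). CHAC1 was at 2.90 to 6.73 RPM in the 5 and 103 RPM, 23.2-fold higher (19.4 to 27.2). DDIT3 was at 0.464 to 1.96 RPM and 22.1 RPM, from 3 to 26 and 99 footprints.

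The secreted factors were nearly without footprints in the 5 libraries. INHBE had 0 to 2 footprints in its coding sequence in each of them and 155 in cytosol replicate 2, or 34.6 RPM. GDF15 had 0 to 7 and 57 footprints, or 12.7 RPM in cytosol replicate 2. The entry that ASNS shares with an overlapping gene was at 84.7 to 147 RPM in the 5 libraries and 499 RPM in cytosol replicate 2. HSPA1A had at most 2 coding footprints in any total input. The pulldown of cytosol replicate 2 departed likewise, with HSPA1B at 12.4 RPM against 27.7 to 80.5 RPM in the other 5 pulldowns, CHAC1 at 94.8 RPM against 0.976 to 4.78 RPM and INHBE at 28.9 RPM against 0 to 0.678 RPM. The part of cycloheximide treatment in this library was not tested, since the labels do not state it for this or any other footprint library.

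**Figure D2:**
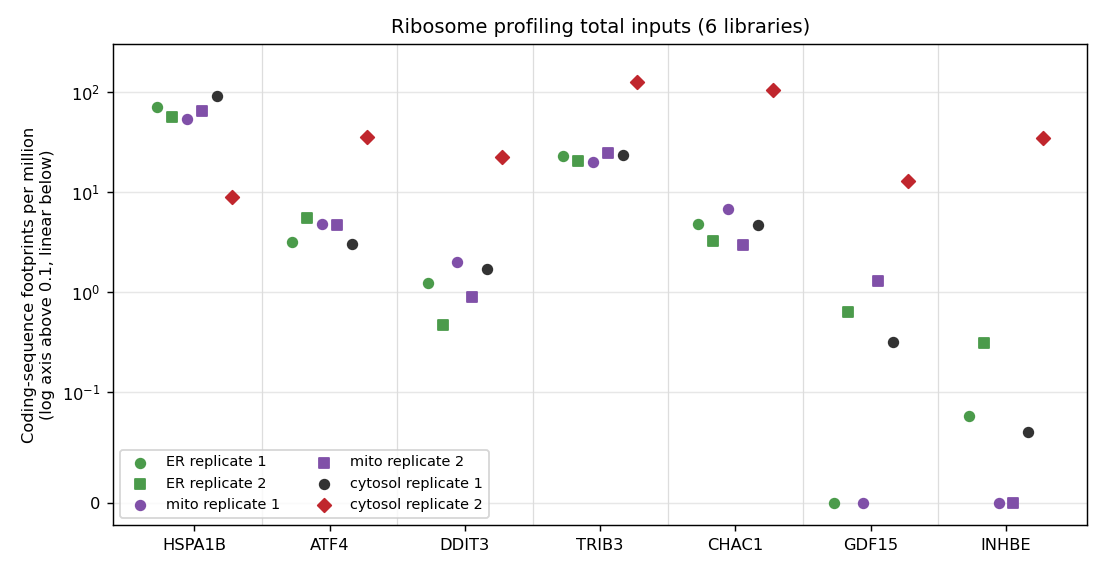
Coding-sequence RPM in 6 ribosome profiling total inputs for the 7 genes with an entry of their own and more than a few footprints, on an axis that is logarithmic above 0.1 and linear below. Cytosol replicate 2 (red diamonds) is the lowest library for HSPA1B at 8.84 RPM and the highest for the 6 ISR genes, from GDF15 at 12.7 RPM to TRIB3 at 124 RPM.

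By the same fold rule, set for this library after its values were seen, 10.2% of 7966 genes were higher in cytosol replicate 2 than in all 5 other total inputs and 4.21% were lower. Of 38 ATF4 targets measured 27 were higher and 1, ATF5, lower, and of 19 heat shock genes 9 were lower and 1 higher. HSPA8 was at 1676 to 2416 RPM in the 5 libraries and 161 RPM in cytosol replicate 2, and HSPH1, an HSP110 chaperone, at 242 to 289 and 53.3 RPM. ATF3 was at 14.8 to 18.5 RPM and 223 RPM, and DDIT4 at 20.1 to 40.9 RPM and 264 RPM. HSPB1 was the heat shock gene called higher, at 44.7 to 71.7 and 149 RPM. Of 15 unfolded protein response genes 3 were called higher, of 15 immediate early genes 5 and of 11 p53 targets 4, and none of these lower. Among them HERPUD1 and ERN1 (unfolded protein response), KLF10 and KLF6 (immediate early) and BBC3 and CDKN1A (p53) had the largest ratios called higher, at log2 ratios of 2.09, 1.89, 2.38, 2.14, 2.55 and 2.24. Of 13 core ISR components and of the 1 snoRNA host gene measured, 0 were called. The footprint ratios of cytosol replicate 2 and the RNA ratios of the library without cycloheximide come from different assays and share no library. Across 7948 genes other than the 10 the log2 ratios correlated at r = 0.341, a description across genes that are not independent. Of 38 ATF4 targets 36 lay above 0 in both, and of 19 heat shock genes 14 lay below 0 in both. The lists were chosen with earlier results of these data known. The share of all genes on the same side in both is not given here, so nothing is read from these counts.

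**Figure D3:**
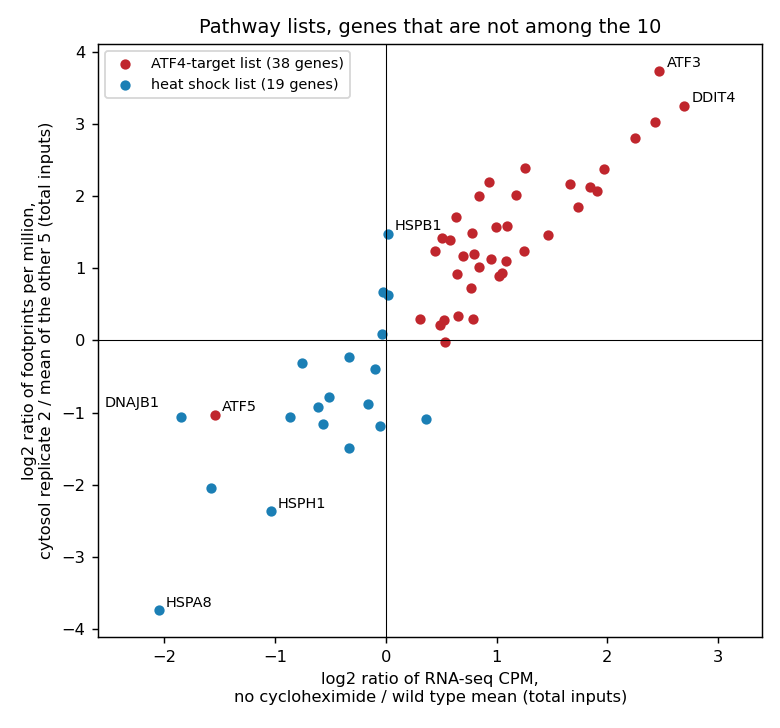
Log2 ratio of RNA-seq CPM without cycloheximide over the wild type mean (x axis) and log2 ratio of RPM in cytosol replicate 2 over the mean of the other 5 total inputs (y axis), 1 point per gene, for 38 ATF4 targets and 19 heat shock genes that are not among the 10. ATF3 and DDIT4 lie at the upper right and HSPA8 at the lower left, with ATF5 among the heat shock genes.

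ATF4 footprints differed in where they lay. The authors' tables split exons into 5′ leader and coding positions over all annotated isoforms. For ATF4 only 118 positions are coding alone, while 1157 carry the leader label, which by their number also include coding bases of the main isoform, so the shares below are not shares of the true leader. Footprints at coding-only positions made up 0.944% and 1.34% of the sum of both in the ER total inputs, 1.28% and 1.04% in the mito total inputs, 0.605% in cytosol replicate 1 and 4.61% in cytosol replicate 2 (157 of 3407 footprints, 95% exact interval 3.93% to 5.37%). The 5 other intervals ended at 1.90% or below. In the pulldown of cytosol replicate 2 the share was 7.02% (6.29% to 7.81%), and the highest upper bound among the 5 other pulldowns was 3.24%. Over all exons ATF4 was at 217 to 320 RPM of exon footprints in the 5 total inputs and 532 RPM in cytosol replicate 2, 1.99-fold higher.

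**Figure D4:**
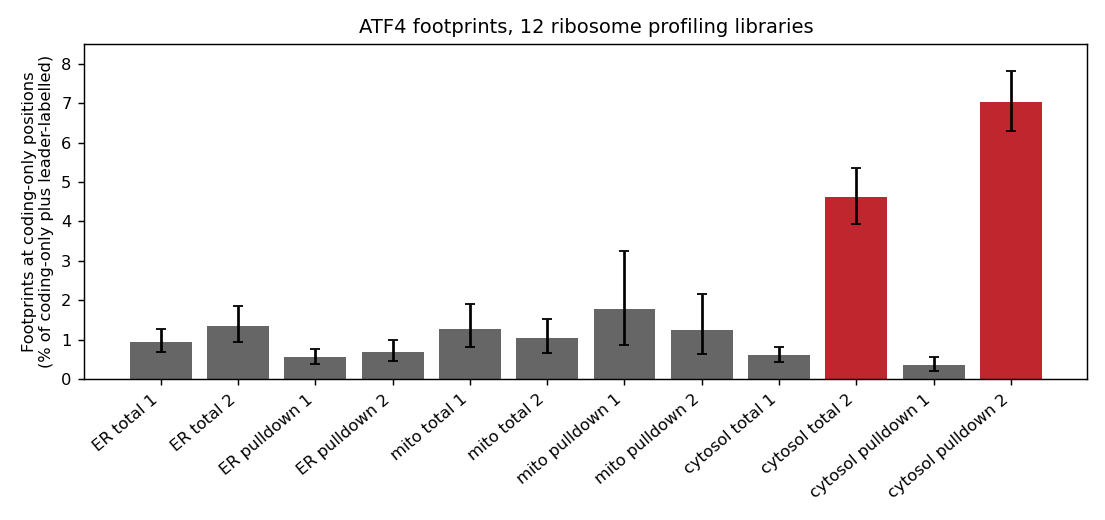
Share of ATF4 footprints at positions that are coding in every isoform, as a percent of those plus the positions labelled leader, in 12 ribosome profiling libraries, with 95% exact binomial intervals that cover counting error only. The total input and the pulldown of cytosol replicate 2 (red) stand at 4.61% and 7.02%, above the intervals of the other 10 libraries.

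Translation efficiency, the log2 ratio of coding footprint density in the mito total inputs to RNA density in wild type total inputs, could be had for only 2 of the genes at 64 counts. TRIB3 was at 0.59, against a median of 1.29 over 6721 genes, at the 29.4th percentile. With cytosol total inputs it was at 2.25, and with cytosol replicate 1 alone at 0.56, so the higher value rests on replicate 2. No RNA-seq library is labelled as matched to that replicate. More TRIB3 RNA and more footprints per RNA thus cannot be told apart there. HSPA1B was at 3.58, the 95.9th percentile, from 20 countable coding positions against RNA counted over the whole gene.

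The OMM pulldown was then compared with the total input of the same lysate, whose level is the denominator. The genes were chosen on total inputs and with earlier results of these data known. The p-values of pulldown over total, here and below, are thus not independent of that choice. The calls of these genes are therefore given as a description. Of the 6 genes with a mean of at least 64 counts over the 12 libraries with a labelled genotype, HSPA1B, ATF4, DDIT3, TRIB3, CHAC1 and ASNS, none was called higher in the wild type pulldown and HSPA1B and ASNS were called lower, where 20.2% and 45.6% of 13856 genes were called higher and lower. HSPA1B had a log2 pulldown over total of -0.47 and -0.58 in the wild type lysates, with a fitted value of -0.52 (SE 0.09, edgeR adjusted p = 0.00130). ASNS had -2.00 and -1.51, with a fitted value of -1.76 (SE 0.32, edgeR adjusted p = 0.00139). Its counts, 42 to 128 in the wild type libraries, cover only reads not shared with the overlapping gene. The ASNS values here and below may thus not hold for its mRNA as a whole. The median over all genes was -0.28, so HSPA1B lay little below the typical gene. With TMM scaling, which centres the typical gene near 0, the split of calls was 4296 higher and 3847 lower instead of 2803 and 6324. On that scale HSPA1B was no longer called (log2 -0.23, adjusted p = 0.0882), while ATF4 (log2 0.49, adjusted p = 0.00310), DDIT3 (log2 0.59, adjusted p = 0.00670) and TRIB3 (log2 0.58, adjusted p = 0.00401) were called higher. ASNS stayed lower at -1.47.

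In LARP4 null cells TRIB3 was called higher, at 0.54 and 0.26 in the lysates and 0.40 (SE 0.11, edgeR adjusted p = 0.0182), and none of the 6 was called lower, where 22.8% and 30.0% of all genes were called higher and lower. HSPA1B was at -0.10 (SE 0.09) and ASNS at -0.45 (SE 0.31) there, with ASNS at -1.05 in replicate 1 and -0.02 in replicate 2. In AKAP1 null cells none was called higher and ASNS (log2 -1.22, SE 0.32, edgeR adjusted p = 0.0162) and ATF4 (log2 -0.26, SE 0.09, edgeR adjusted p = 0.0494) were called lower, where 13.9% and 28.1% of all genes were. With TMM, ATF4 was not called there (log2 -0.13, adjusted p = 0.336) and HSPA1B was called higher (log2 0.30, adjusted p = 0.0422). The typical gene was at -0.06 in LARP4 null and -0.12 in AKAP1 null cells. In AKAP1 null pulldowns HSPA1B stood at 405 and 465 CPM, against 197 and 196 CPM in wild type, 2.21-fold higher. DDIT3 stood there at 5.20 and 4.61 CPM, against 7.03 and 6.37 CPM in wild type. Differences in enrichment between genotypes were not tested, since they contain the differences between total inputs that chose the genes.

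**Figure D5:**
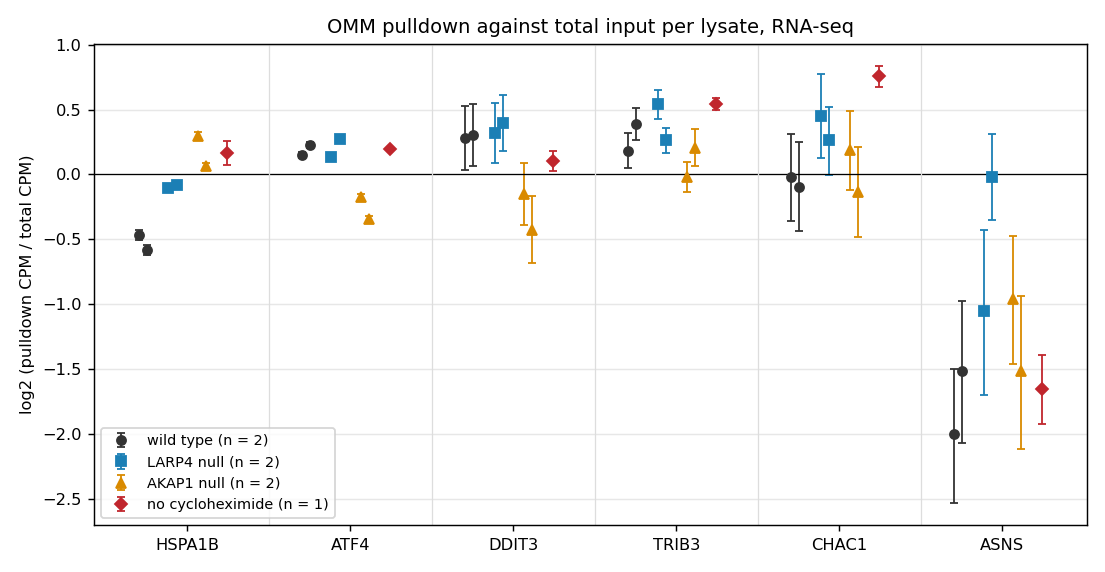
Log2 ratio of pulldown CPM to total input CPM per lysate for 6 genes in wild type, LARP4 null and AKAP1 null cells and in the pair without cycloheximide, 1 point per lysate with 95% counting intervals. HSPA1B lies at -0.47 and -0.58 in wild type and at 0.30 and 0.06 in AKAP1 null cells, and ASNS lies between -0.02 and -2.00.

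The pair without cycloheximide gave 1 ratio per gene and no test. GDF15 (log2 1.16, counting interval 1.00 to 1.32), NUPR1 (1.03, 0.85 to 1.21), CHAC1 (0.76, 0.68 to 0.84) and TRIB3 (0.54, 0.49 to 0.59) had a higher CPM in the pulldown than in the total input. They lay at the 93.7th, 92.0th, 86.3th and 79.9th percentile of 15112 genes, whose median was -0.10. INHBE was at 0.33, ATF4 at 0.20, HSPA1B at 0.17, DDIT3 at 0.10 and ASNS at -1.65. For CHAC1 all 6 lysates with a labelled genotype were lower, at -0.14 to 0.45, but the interval of the highest, LARP4 null replicate 1 (0.12 to 0.77), overlapped. TRIB3 was likewise at 0.54 in LARP4 null replicate 1. From few counts, NUPR1 was at 1.95 in wild type replicate 1 and GDF15 at 1.94 in AKAP1 null replicate 2.

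In ribosome profiling, footprints of HSPA1B and TRIB3 could be tested. In the ER pulldowns both were called lower and none higher, at log2 values of -1.04 (SE 0.14, edgeR adjusted p = 1.42e-06) and -0.81 (SE 0.16, edgeR adjusted p = 0.000111), where 19.9% and 72.0% of 7390 genes were called higher and lower and the median was -0.68. With TMM the split of all calls was 2160 higher and 1876 lower, HSPA1B remained called at -0.39 (adjusted p = 0.0236) and TRIB3 did not, at -0.16 (adjusted p = 0.399). In the OMM pulldowns HSPA1B was called lower at -0.58 (SE 0.18, edgeR adjusted p = 0.00970) and TRIB3 was at 0.06 (SE 0.22), with 17.0% and 45.9% of 6742 genes called higher and lower and a median of -0.38. With TMM (1742 higher and 1646 lower in all) HSPA1B was at -0.26 (edgeR adjusted p = 0.237), and over all exon positions it was at -0.09 (edgeR adjusted p = 0.366) on library totals. Most exon footprints of HSPA1B and ATF4 lay at leader-labelled positions, so the exon values here and below are not coding values. In the cytosol pulldowns neither TRIB3 (0.17, SE 0.14, and 0.25 without cytosol replicate 2) nor CHAC1 (-0.07, SE 0.19, and 0.05 without it) was called, where 2.04% and 5.95% of 7173 genes were called higher and lower. HSPA1B did not meet the minimum there because of cytosol replicate 2. Over all exon positions it was called lower in the cytosol pulldown at -0.57 (edgeR adjusted p = 0.000233), with -0.49 in replicate 1 and -0.68 in replicate 2, and without replicate 2 it was still called (-0.49, adjusted p = 0.000391). ATF4 was called lower there at -0.47 (edgeR adjusted p = 0.0402), but its lysates were at -0.16 and -0.78 and without replicate 2 it was not called (-0.16, adjusted p = 0.464).

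The remaining genes had too few footprints for that test. GDF15, which enters the secretory pathway, had 0 and 4 footprints in the ER total inputs and 11 and 23 in the ER pulldowns, a log2 pulldown over total of 1.66 in replicate 2 (counting interval 0.11 to 3.65); no ratio is given for replicate 1, whose total input held 0. INHBE, likewise secreted, had 1 and 2 footprints in the ER total inputs and 6 and 8 in the ER pulldowns. The ASNS entry, a cytosolic enzyme, was at -1.15 and -1.04 in ER lysates and -1.13 and -0.88 in OMM lysates. In cytosol replicate 2, where their counts were highest, GDF15 was at 0.02 (-0.43 to 0.49) and INHBE at -0.26 (-0.54 to 0.03).

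Among 14288 genes with a mean of at least 64 counts over the 7 RNA-seq total inputs, those most like each of the 9 genes that met this minimum were found by Pearson's r of log2(CPM + 0.5). For HSPA1B they were VANGL1, VTI1A and DPP9 (r = 0.995 to 0.996), and for ATF4 FAM104B, HOTAIR and TIAM1-AS1 (0.984 to 0.991). For DDIT3 they were ALKBH3, MAPK10 and FUT1, for NUPR1 ATXN3, CEBPG and LRRC37A9P, for TRIB3 GARS1, GAA and PRIMPOL and for CHAC1 OARD1, LETMD1 and CEBPG. For ASNS they were GXYLT1, BCAS3 and CRAT, for GDF15 PRIMPOL, GPX8 and INPP5D and for INHBE SLC6A9, INPP5D and LYRM9. Each r was over 7 libraries, so the library without cycloheximide entered the choice. NUPR1, GDF15 and INHBE met the minimum only through that library. Nothing is thus read from r or from the levels of the genes found. Over the 6 without the library lacking cycloheximide r was 0.716 to 0.985, except 0.545 for LRRC37A9P with NUPR1 and -0.18 and 0.245 for CEBPG with NUPR1 and CHAC1. CEBPG, a C/EBP-family partner of ATF4, was at 106 to 115 CPM in the 6 libraries and 311 CPM without cycloheximide. INPP5D, a lipid phosphatase best known from blood cells, was at 0.335 to 0.932 CPM in the 6 and 12.8 CPM without cycloheximide.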

How the data were processed

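RNA-seq: the authors aligned reads with STAR to GRCh38 and deposited featureCounts read counts per gene. Ribosome profiling: the authors deposited expected counts and RPKM per gene region, made with plastid from uniquely placed footprints of 27 to 36 bases, with positions repeated at 28 bases masked (Ensembl 104, per the file headers). A further FPKM column, deposited by the authors and treated here as a score of unclear scale, was not used, and FPKM here was computed from counts. The 10 genes and the gene lists were chosen with earlier results of these data known. Pulldowns were compared with total inputs by edgeR 4.0.16 (quasi-likelihood, lysate as a block, library totals, expected counts rounded, at least 64 counts, Benjamini-Hochberg, threshold 0.05), and genotypes by edgeR with TMM and no block. The library without cycloheximide got a fold rule and exact binomial intervals (scipy), which cover counting error only. Alternatives were TMM, DESeq2 1.42.0, a minimum of 10 counts, no block or a block, each replicate left out, and, chosen after seeing the data, counts over all exons, also without cytosol replicate 2. Named genes were the 10, AKAP1, LARP4, the 2 largest rises and falls called in each list and the 3 most alike genes; IRAK1BP1, INPP5D and CEBPG values were singled out after their values were seen. Fits were tested on simulated data.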

Additional observations from a re-analysis of the deposited data

Results flagged for a closer look

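Among the 6 genes with a mean of at least 64 counts over the 12 libraries, 4 were picked out by the log2 OMM pulldown over total input in RNA-seq. It lay on one side of 0 in both wild type lysates and on the other side in both lysates of a null line, a difference that was not tested. The mean log2 ratio of HSPA1B was higher by 0.70 in AKAP1 null than in wild type cells, with lysates at -0.47 and -0.58 in wild type and 0.30 and 0.06 in AKAP1 null. For ATF4 the difference of AKAP1 null from wild type was -0.45, with lysates at 0.15 and 0.23 in wild type and -0.17 and -0.34 in AKAP1 null. For DDIT3 it was -0.58, with lysates at 0.28 and 0.30 in wild type and -0.15 and -0.43 in AKAP1 null. For CHAC1 the difference of LARP4 null from wild type was 0.41, with lysates at -0.02 and -0.09 in wild type and 0.45 and 0.26 in LARP4 null. The median over all genes was -0.26 and -0.30 in the wild type lysates, -0.10 and -0.14 in AKAP1 null and -0.14 and 0.02 in LARP4 null. CHAC1 lay above these medians in wild type and in LARP4 null alike. Its counting intervals included 0 in both wild type lysates (-0.36 to 0.31 and -0.44 to 0.25) and in LARP4 null replicate 2. That of DDIT3 in AKAP1 null replicate 1 (-0.39 to 0.09) did too. Of all 13856 genes over that minimum, 9.92% met the same condition in AKAP1 null and 3.88% in LARP4 null. NUPR1 also met it, at 1.95 and 1.00 in wild type and -1.32 and -2.97 in AKAP1 null from 1 to 17 counts a library, but was under the minimum.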

How the results depend on the processing

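The scale decides which of the 6 genes are called in the OMM pulldown in RNA-seq. In wild type the count called higher was 3 with TMM and 3 with DESeq2 instead of 0, and the count called lower 1 and 1 instead of 2. In AKAP1 null it was 1 and 1 higher instead of 0, and 1 and 1 lower instead of 2, also 1 lower with a minimum of 10 counts. In LARP4 null it was 3 with TMM and 2 with DESeq2 higher instead of 1. For footprints, HSPA1B and TRIB3 called lower at the ER became 1 with TMM and with DESeq2 and 4 genes with a minimum of 10 counts, and HSPA1B called lower at the OMM became 0 with TMM, DESeq2 and counts over all exons. Counts over all exons gave 2 called lower in the cytosol instead of 0, and 1 without cytosol replicate 2, where HSPA1B at the OMM was again not called (0). Without the lysate pairing (no replicate block) 0 were called lower in AKAP1 null, 0 higher in LARP4 null, 0 lower at the ER and 0 at the OMM, and the wild type calls stayed at 2. For the total inputs the replicate numbers did not pair the genotypes (correlations of deviations 0.34, 0.21 and -0.05), and with the number as a block 0 genes were called higher and 0 lower in both nulls, instead of the 1 higher (IRAK1BP1, log2 5.67) and 1 lower (LARP4) in LARP4 null. DESeq2 called 8 higher and 7 lower in AKAP1 null and 14 and 14 in LARP4 null. Leaving out each replicate moved members called in wild type pulldowns from 0 to 3 higher (3 without either LARP4 null replicate), in AKAP1 null from 0 to 1 higher (1 without LARP4 null replicate 1) and 0 to 2 lower (0 without either AKAP1 null replicate, 1 without either wild type replicate), in LARP4 null from 0 to 1 lower (1 without its replicate 2) and in OMM footprints from 0 to 1 lower (0 without either mito replicate). It moved genes called in LARP4 null total inputs from 0 to 7 higher and 0 to 1 lower, with 7 and 1 without LARP4 null replicate 2. Without cycloheximide, 747 to 1250 genes were called higher when a wild type replicate was left out, 1250 without replicate 1, against 681. With a log2 ratio of at least 0.5 the counts were 2381 higher and 1917 lower, and in cytosol replicate 2 they were 2175 and 1177. The causes were not tested, except that a lower fold or a lower minimum admits more genes by construction. No called value changed sign under the alternatives that were run. Depth limits GDF15, INHBE and NUPR1, which had few counts outside 1 pair of total input and pulldown in each assay, and HSPA1A, which had few in all.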
